A study of Mus musculus with 2 samples.

Results

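The transcripts described here are those of 41 mouse genes, 33 immediate-early genes and 8 heat-shock genes. They were chosen by their symbols among the 32285 genes of the count tables. Many are switched on within minutes to hours of stimulation or stress, but not all, since Hspa8 is a constitutive chaperone gene. All 41 were followed in 2 single-cell RNA-seq libraries of lung γδ T cells from uninfected mice aged 5 to 7 weeks. The WT library held sorted Vγ1- γδ T cells of C57BL/6NCrl mice. The KO library held lung Vγ1+ T cells of B6.Cg-Tcrgtm1lku(B6.Vg4-/-Vg6-/-) mice, which carry targeted Vγ4 and Vγ6 genes in every cell. After removal of cells with non-T markers, 2255 WT and 6369 KO cells remained, and each member's unique molecular identifiers (UMIs, 1 per captured transcript) were summed per group of cells and divided by all UMIs of that group, as a share or, on the usual scale of single-cell counts, as CPM. Groups were formed from the single Tcrg-V gene, encoding the γ chain variable region in Heilig and Tonegawa nomenclature, whose UMIs a cell held, and from detection of Tmem176b, Ly6c2 and Ifng.

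Immediate-early genes are transcribed from promoters that are already poised, without new protein synthesis, when a T cell is stimulated through its receptor or by cytokines. Many encode transcription factors such as Fos, Jun and Egr1, and others encode brakes on the same response, among them Dusp phosphatases, Nfkbia and Zfp36 proteins that speed mRNA decay. Heat-shock genes encode chaperones that refold proteins, and heat shock factor 1 activates the inducible members. Both kinds of gene are also known to respond to the handling of tissue, and here the lungs were digested with warm collagenase before the cells were sorted. The part of that step in the values below was not tested.

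Promoter windows are shown for 4 members because Fos and Atf3 were among the members that differed most between the libraries, and because Hspa1a and Hspa1b are a near-identical pair. Each line is the 250 bases before the start of the gene's RefSeq transcript on the GRCm38.p6 build, read 5′ to 3′ on the gene's strand. Capitals mark TGACGT, the core of the cAMP response element, or its reverse complement, in Fos and Atf3, and GAANNTTC, a pair of heat shock units, in Hspa1a and Hspa1b. The Fos window lay at chr12:85473640-85473889 on the plus strand, and the Atf3, Hspa1a and Hspa1b windows lay on the minus strand at chr1:191183334-191183583, chr17:34972157-34972406 and chr17:34959239-34959488. The Atf3 window lies inside the gene's span in the GENCODE annotation, at a start downstream of the outermost one.
Fos: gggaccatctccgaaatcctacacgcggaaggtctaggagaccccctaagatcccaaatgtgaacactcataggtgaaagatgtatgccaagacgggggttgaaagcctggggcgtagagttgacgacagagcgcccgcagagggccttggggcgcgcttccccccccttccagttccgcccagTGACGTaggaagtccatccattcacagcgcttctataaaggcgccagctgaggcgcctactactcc
Atf3: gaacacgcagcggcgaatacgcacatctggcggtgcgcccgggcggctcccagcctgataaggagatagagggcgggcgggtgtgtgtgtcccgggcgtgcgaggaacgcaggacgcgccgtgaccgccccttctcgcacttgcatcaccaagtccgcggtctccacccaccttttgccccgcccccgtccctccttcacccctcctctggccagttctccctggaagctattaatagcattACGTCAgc
Hspa1a: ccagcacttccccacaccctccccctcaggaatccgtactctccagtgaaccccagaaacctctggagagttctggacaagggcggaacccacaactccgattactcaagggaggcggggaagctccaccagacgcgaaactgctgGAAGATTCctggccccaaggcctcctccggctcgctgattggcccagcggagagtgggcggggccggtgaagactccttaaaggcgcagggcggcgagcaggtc
Hspa1b: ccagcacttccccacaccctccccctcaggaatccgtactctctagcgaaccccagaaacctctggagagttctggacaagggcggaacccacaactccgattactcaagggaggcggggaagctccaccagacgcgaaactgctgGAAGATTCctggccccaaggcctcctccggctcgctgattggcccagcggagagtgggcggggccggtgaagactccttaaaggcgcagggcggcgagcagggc
The Fos match covered bases 66 to 61 before the start and the Atf3 match bases 8 to 3. The Hspa1a and Hspa1b matches both covered bases 104 to 97, and the windows were identical at 247 of 250 positions (98.8%). Because these neighbouring genes on chromosome 17 share most of their sequence, the division of UMIs between Hspa1a and Hspa1b is uncertain.

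RefSeq windows were matched for 33 of the 41 members. Of their 42 windows, 33 had a start within 60 bases of a GENCODE transcript start. The matches given below for Btg2, Fosl2 and Nr4a3, and the heat shock matches of Dnaja1 and Egr2, lay only in the other windows. Either spelling of the paired heat shock unit, GAANNTTC or TTCNNGAA, was present in 5 of the 6 matched heat-shock members (Dnaja1, Hspa1a, Hspa1b, Hspe1 and Hsph1), in 3 of the 27 matched immediate-early members (Egr2, Fosl2 and Jun), and in 14.5% of all 27025 genes with a window. The longer spelling, with a further GAA after the first pair, was present in Hspe1 alone among the members and in 0.514% of all genes. TGACGT on either strand was present in 11 of the 27 immediate-early members, among them Fos, Atf3, Btg2, Dusp1, Dusp5 and Nr4a3, in 0 of the 6 heat-shock members, and in 7.29% of all genes. The full element TGACGTCA, which contains that core, was present in Btg2, Dusp1 and Ppp1r15a and in 1.77% of all genes. κB sites were found in 6 immediate-early members (Fos, Fosb, Fosl2, Ier3, Nfkbia and Tnfaip3) against 4.46% of all genes, and CArG boxes, the binding sequence of serum response factor, in 3 (Dusp5, Egr2 and Zfp36) against 1.62%. The AP-1 site TGANTCA was present in Tnfaip3 and Zfp36l1 and in 7.82% of all genes. A match describes letters in the window and is no evidence of binding, and a window without a match says only that these letters were not in it.

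The WT library had a median of 3367 UMIs and 1524 genes per T cell, and the KO library 3563 UMIs and 1599 genes. Mitochondrial transcripts took a median of 1.49% of UMIs in both. The 7 T cell markers together reached 3131 CPM in WT and 3043 CPM in KO cells, while summed B cell, myeloid, epithelial and endothelial lists lay between 15.5 and 60.1 CPM. Transcripts of the αβ T cell list reached 885 CPM in WT and 1144 CPM in KO cells, and their part in the differences below was not tested. The libraries shared 23 barcodes, 22 of them among T cells. The labels were not fully matched. In KO, 347 T cells held Tcrg-V4 UMIs and those of no other Tcrg-V gene, and in WT 80 T cells held those of Tcrg-V1 alone. Any Tcrg-V4 UMI was found in 15.1% of KO T cells, against 22.7% of WT T cells. Each group is 1 library, so every difference below compares these libraries and has no replicate check. Intervals are 95% and cover counting error only, and the sort, genotype, strain and library cannot be told apart.

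Together, the 41 members took 2.28% of all UMIs in WT T cells (189147 UMIs) and 1.82% in KO T cells (460782 UMIs). The KO over WT ratio was -0.32 on the log2 scale, with an interval from -0.33 to -0.31. Immediate-early transcripts took 1.46% in WT and 1.12% in KO cells, and heat-shock transcripts 0.819% and 0.703%. The difference was thus larger for immediate-early transcripts (log2 -0.38) than for heat-shock transcripts (log2 -0.22). A few genes made up much of these sums. Hspa8, the constitutive Hsc70 chaperone, gave 18.3% of the member UMIs in WT and 19.1% in KO cells, and Junb, an AP-1 subunit, gave 11.3% and 12.2%. The fewest UMIs came from Egr3, with 8 in WT and 27 in KO cells, and Egr2, with 33 and 74, both zinc finger factors downstream of receptor signalling.

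**Figure D1:**
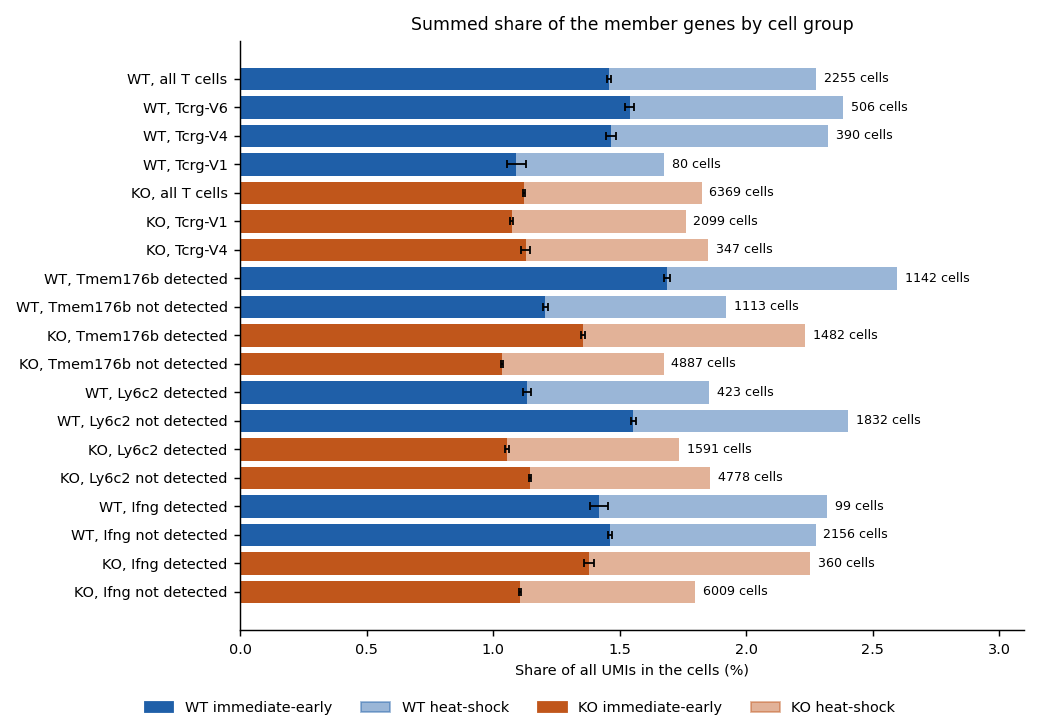
Share of all UMIs (x axis, percent) taken by immediate-early members (dark part of each bar, with its 95% counting interval) and heat-shock members (light part) in groups of T cells (y axis, with cell numbers), blue for WT and orange for KO. Cells with a Tmem176b UMI lay above those without one in both libraries, at 2.60% against 1.92% in WT and 2.23% against 1.67% in KO.

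The members that differed by 1.5-fold or more between the libraries were all immediate-early genes. Of 40 members with enough UMIs to be counted (at least 20 expected in each sum), 12 were at least 1.5-fold lower in KO, where 9.11% of the 10384 genes counted were that much lower. One member, Ier5, was at least 1.5-fold higher, where 7.65% of all genes were. The 12 lower members were Fos, Fosb, Atf3, Egr1, Nr4a3, Klf4, Ier3, Dusp5, Btg2, Cd69, Rgs1 and Gadd45b. The log2 ratio lay below 0 for 32 of the 40 counted members and had a median of -0.35, against 0.05 over all genes.

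Among the AP-1 factors, which bind DNA as pairs, the inducible Fos, Fosb and Atf3 were at least 1.5-fold lower in KO and the Jun members were not. Fos was at 1045 CPM in WT and 404 CPM in KO cells, a log2 ratio of -1.37 (-1.41 to -1.33). Atf3, a stress-induced repressor, was at 382 and 142 CPM (log2 -1.43), and Fosb at 65.3 and 24.95 CPM (log2 -1.39). Fosl2 stood nearly level at 354 and 345 CPM. Junb, with the most UMIs of them, was at 2583 and 2233 CPM, and Jun ran the other way at 257 and 311 CPM (log2 0.28). Fos occupies chr12:85473890-85477273 and Atf3 chr1:191170296-191218039 in the GENCODE annotation of GRCm38.p6.

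Egr1, a zinc finger factor induced through the MAP kinase pathway, was 2.996-fold higher in WT, at 98.1 CPM against 32.8 CPM in KO. The NR4A orphan nuclear receptors, reporters of antigen receptor signalling, were each lower in KO. Nr4a1 was at 229.9 CPM in WT and 164 CPM in KO cells, Nr4a2 at 289.8 CPM and 204 CPM, and Nr4a3 at 222 and 133 CPM, and only Nr4a3 passed 1.5-fold. The KLF factors split, with Klf4 at 49.5 and 21.1 CPM and Klf6 at 441 CPM in both libraries. The 3 Ier genes split too: Ier3, an apoptosis regulator, was at 20.9 and 10.4 CPM, Ier2 at 600.0 and 647 CPM, and Ier5 at 142 and 226 CPM (log2 0.67, 0.58 to 0.76).

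Among the phosphatases and the RNA decay and NF-κB feedback genes, Dusp5 and Btg2 were at least 1.5-fold lower in KO. Dusp5, a nuclear phosphatase of ERK, was at 215 CPM in WT and 100.2 CPM in KO cells (log2 -1.10). Dusp1, which acts on p38 and JNK, was at 293 and 238 CPM, and Dusp2 was level at 73.1 and 73.8 CPM. Of the antiproliferative and RNA decay genes, Btg2 was at 573 and 364 CPM whereas its relative Btg1 was higher in KO at 467 and 667 CPM. Zfp36l1, an AU-rich element binding protein, was at 681 and 455 CPM, just inside the 1.5-fold limit. The NF-κB inhibitors Nfkbia and Tnfaip3 had log2 ratios of -0.34 and -0.35, and Nfkbiz -0.45.

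Rgs1, which switches off G protein signalling from chemokine receptors, had the largest difference of any member. It was at 600.8 CPM in WT and 150.1 CPM in KO cells, a log2 ratio of -2.001 (-2.06 to -1.94), and lies at chr1:144242296-144249242. Its relative Rgs2 was at 354 and 271 CPM. Cd69, an activation antigen that holds T cells in tissue, was at 244 and 142 CPM (log2 -0.78). Gadd45b, a stress-induced activator of p38, was at 551 and 283 CPM (log2 -0.96), while Ppp1r15a, which restores translation after stress, differed little at 512 and 475 CPM.

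No heat-shock member reached 1.5-fold. Hspa8 was at 4165 CPM in WT and 3494 CPM in KO cells, and the inducible Hsp90aa1 at 1029 and 811 CPM. Hspa1b, one of the inducible Hsp70 pair, was at 276 and 185 CPM (log2 -0.58), just inside the limit. It was called lower in KO with thinning, in cells with Xist and in cells without Tmem176b. It was not called in cells with Tmem176b, against WT cells with Y-linked UMIs, or with scaling to UMIs without mitochondrial and ribosomal genes. Hspa1a was at 335 and 314 CPM (log2 -0.09). Their cochaperone Dnajb1 stood at 259.8 CPM and 275 CPM, and the nucleotide exchange factor Hsph1 at 348 and 330.2 CPM. The mitochondrial cochaperone Hspe1 was at 398 and 429 CPM.

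**Figure D2:**
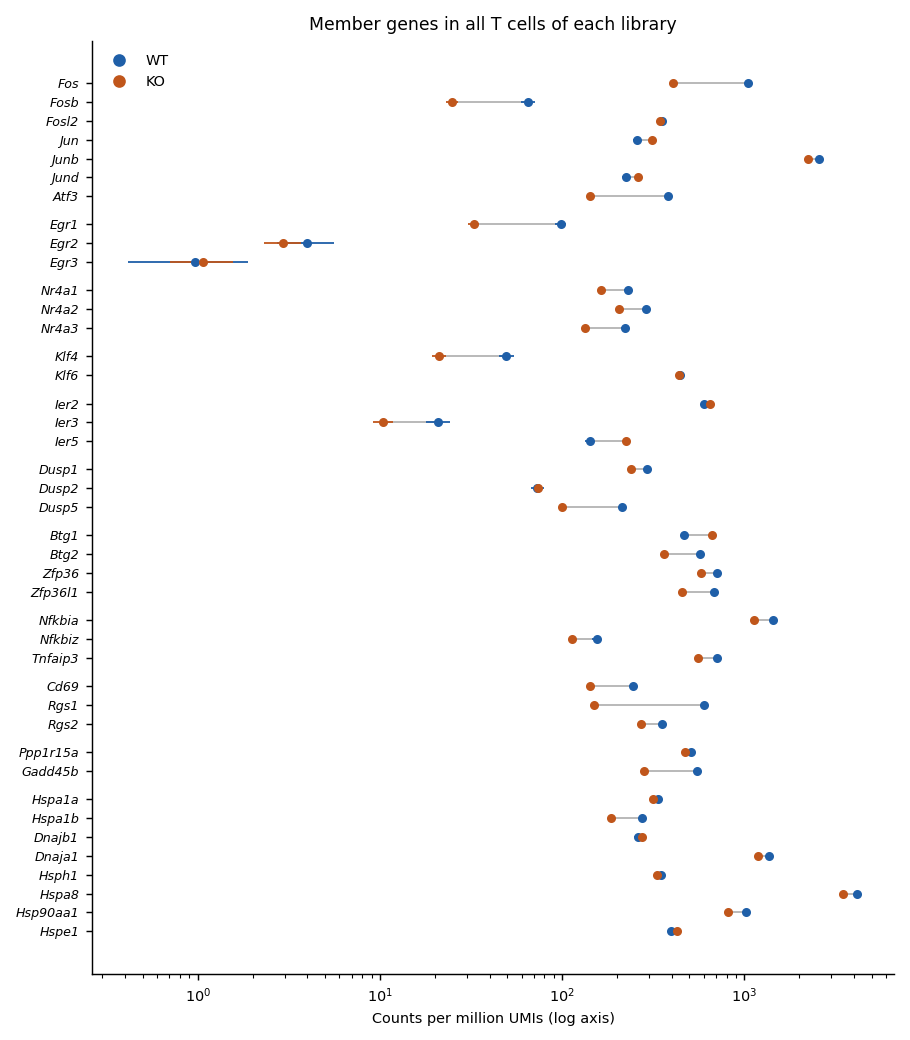
Level of each member in all T cells of the WT and KO libraries (x axis, CPM on a log scale), 1 line per gene (y axis) in groups of like function, with blue points for WT, orange points for KO and coloured bars for 95% counting intervals. Rgs1 had the widest gap, at 600.8 and 150.1 CPM, the points of Klf6 and of Dusp2 lay on top of each other, and Ier5 was higher in KO.

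The libraries also differed in make-up. Tmem176b, a membrane protein gene of IL-17-type T cells, was detected in 1142 of the 2255 WT cells and 1482 of the 6369 KO cells, and the gap between the libraries was smaller among cells alike in it. Among cells with Tmem176b the members took 2.60% in WT and 2.23% in KO (log2 -0.22), and among cells without it 1.92% and 1.67% (log2 -0.20). With Tmem176b, 9 of 39 counted members were at least 1.5-fold lower in KO, where 6.96% of all genes were, and 1 was higher, where 9.15% were. Fos (log2 -0.87), Egr1 (-1.26), Dusp5 (-0.91), Cd69 (-1.05), Rgs1 (-1.41) and Gadd45b (-0.63) were among the 9, whereas Atf3 had a log2 ratio of -0.43. Without Tmem176b, 14 of 39 were lower, where 7.24% of all genes were, and 2 (Jun at 0.69 and Ier5 at 0.81) were higher, where 4.71% were. Atf3 (-2.16) and Klf4 (-1.56) had their largest library differences in these cells. Fos, Egr1, Rgs1 and Ier5 therefore differed in the same direction in cells with and without Tmem176b.

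Across cells with UMIs of a single Tcrg-V gene, the member share was lower in the Tcrg-V1 cells of both libraries than in the main WT groups. WT cells with Tcrg-V6 took 2.38% (506 cells, 2.36 to 2.41) and those with Tcrg-V4 2.32% (390 cells, 2.30 to 2.35). WT cells with Tcrg-V1, the variable region that the WT sort gated against, took 1.68% (80 cells), and KO cells with Tcrg-V1 took 1.76% (2099 cells). The WT Tcrg-V5 cells were highest at 2.96% but numbered 48. Smaller groups lay at 1.53% (WT Tcrg-V3, 13 cells) and 1.45% (WT Tcrg-V7, 32 cells), and their intervals overlapped. KO cells with Tcrg-V4 took 1.85% (347 cells) and those with Tcrg-V3 1.79% (81 cells). Cells with no Tcrg-V UMI took 2.31% in WT and 1.998% in KO (890 and 3041 cells), and cells with UMIs of several Tcrg-V genes took 2.18% and 1.53% (296 and 757 cells).

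Individual members had their own order over these groups. Rgs1 was at 905 CPM in WT Tcrg-V6 cells, 441 CPM in WT Tcrg-V4 cells and 247 CPM in WT Tcrg-V1 cells, and at 158 CPM in KO Tcrg-V1 and 143 CPM in KO Tcrg-V4 cells. Fos was at 969.6, 1368 and 691 CPM in the same WT groups, and at 428 and 394 CPM in the KO groups. Atf3 was at 502, 352 and 114 CPM in WT, and at 169 and 138 CPM in KO. For these genes each KO group thus lay below the WT Tcrg-V4 and Tcrg-V6 groups, and Atf3 in WT Tcrg-V1 cells lay with the KO groups. Hspa1a and Hspa1b were low in WT Tcrg-V1 cells, at 87.6 CPM (27 UMIs) and 42.2 CPM (13 UMIs), against 305 and 184 CPM in KO Tcrg-V1 cells. The 48 WT Tcrg-V5 cells had the highest Atf3, at 1135 CPM, and Gadd45b, at 1001 CPM.

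**Figure D3:**
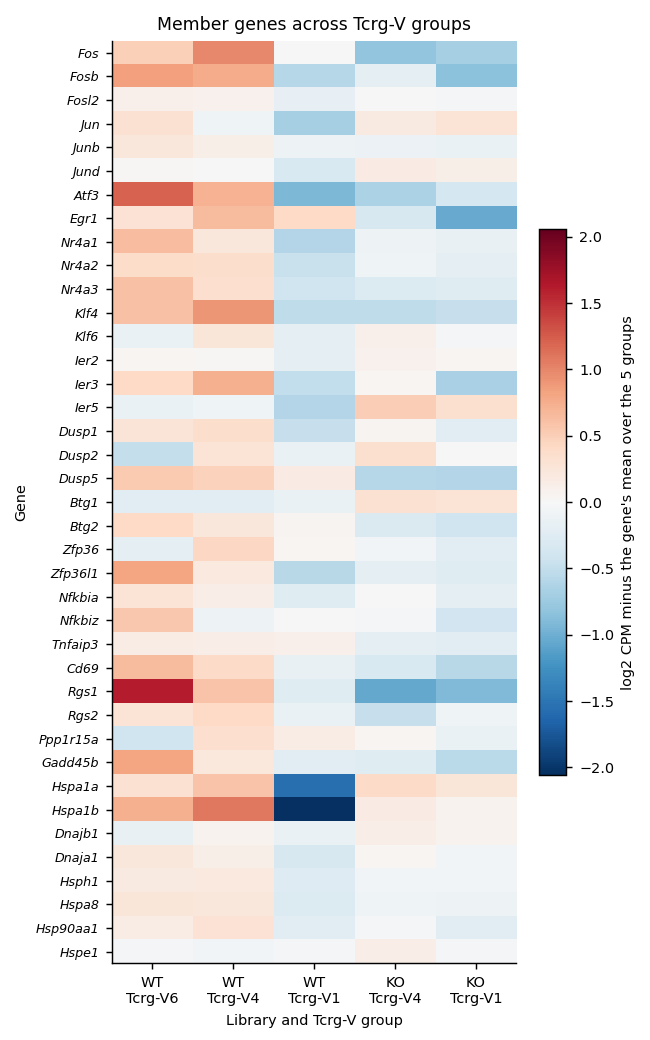
Level of 39 members (y axis; Egr2 and Egr3 are left out) in 5 groups of T cells with UMIs of a single Tcrg-V gene (x axis), coloured by log2 CPM minus the gene's mean over the groups, red above and blue below it. Rgs1 was reddest in WT Tcrg-V6 cells (905 CPM), Hspa1a and Hspa1b were bluest in WT Tcrg-V1 cells (27 and 13 UMIs), and Ier5 was redder in both KO groups than in the WT groups.

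Between KO Tcrg-V1 cells and WT Tcrg-V6 cells, 16 of 39 counted members were at least 1.5-fold lower in KO, where 11.4% of all genes were, and 0 were higher, where 16.8% were. Against WT Tcrg-V4 cells, 13 of 38 were lower, where 5.1% of all genes were, and 0 were higher, where 7.95% were. Both comparisons use the same KO cells. In each, 1 of the lower members was a heat-shock gene, Hspa1b in both. Within WT, cells with Tcrg-V4 had 3 members at least 1.5-fold above those with Tcrg-V6, where 9.67% of all genes were, and 4 below, where 11.6% were. Dusp2, a phosphatase induced in activated T cells, was at 82.3 CPM in Tcrg-V4 and 48.1 CPM in Tcrg-V6 cells, and Zfp36 and Ppp1r15a were the others above. Rgs1 (log2 -1.04), Nfkbiz (-0.65), Zfp36l1 (-0.62) and Gadd45b (-0.60) were below. The member median of -0.02 lay near the all-gene median of 0.00, and the log2 ratio of the summed shares was -0.04, turning to 0.04 when each cell was thinned to 2000 UMIs.

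The WT library held cells of female and of male mice, and so of more than 1 animal. Xist, the X inactivation transcript of female cells, was detected without Y-linked UMIs in 758 WT T cells, and Y-linked UMIs without Xist in 522. In KO, 3088 of 6369 T cells had Xist without Y-linked UMIs and 25 had Y-linked UMIs without Xist. The libraries thus differed in sex make-up as well, and its part in the KO over WT values of all T cells was not tested. All WT cells of both kinds took nearly the same member share, 2.30% with Xist and 2.29% with Y-linked UMIs, but the Tcrg-V groups within them did not. Tcrg-V6 cells took 2.80% with Xist (180 cells) and 2.01% with Y-linked UMIs (123 cells), whereas Tcrg-V4 cells took 2.18% (117 cells) and 2.49% (100 cells). The order of the Tcrg-V groups was therefore opposite in these kinds of cells. The number of mice of each sex is not known, so sex and individual animal cannot be told apart. The split was chosen after the data were seen.

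The reversal was seen in single members. Among cells with Xist, Fos was at 1008 CPM with Tcrg-V4 and 1183 CPM with Tcrg-V6. Among cells with Y-linked UMIs it was at 1676 and 708 CPM (log2 1.24). Egr1 was at 84.9 and 135 CPM with Xist but at 136 and 47.3 CPM with Y-linked UMIs. Hspa1a likewise was at 278 and 539 CPM with Xist but at 472 and 187 CPM with Y-linked UMIs. Its near-identical partner Hspa1b did not reverse, at 530.4 and 435 CPM with Xist and at 325 and 186 CPM with Y-linked UMIs. By count, 1 of 38 members was at least 1.5-fold higher and 12 were lower in Tcrg-V4 cells with Xist, where 11.1% and 15.7% of all genes were. In cells with Y-linked UMIs, 12 of 37 were higher and 1 was lower, where 9.69% and 13.8% of all genes were. Rgs1 (log2 -1.73 and -0.58) and Zfp36l1 (-1.10 and -0.63) were lower in Tcrg-V4 than in Tcrg-V6 cells in both kinds of cells. Between the libraries, 1 of 39 members was at least 1.5-fold higher and 14 were lower in KO against WT cells of either kind, where 7.33% and 8.14% of all genes were with Xist and 10% and 7.75% with Y-linked UMIs. In the comparisons with Xist, the KO cells too were those with Xist and no Y-linked UMI. KO Tcrg-V1 cells had 0 of 37 members higher and 22 lower against WT Tcrg-V6 cells with Xist, where 18.6% and 11.2% of all genes were. Against those with Y-linked UMIs they had 2 of 35 higher and 9 lower, where 16% and 10.5% were.

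**Figure D4:**
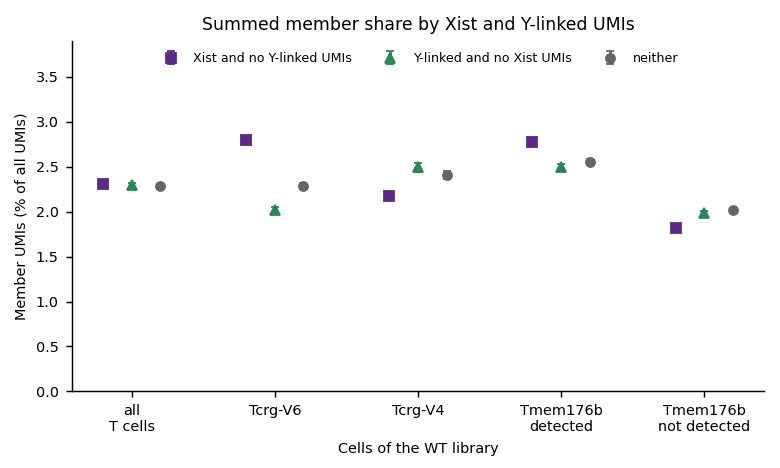
Share of all UMIs taken by the members (y axis, percent) in groups of WT T cells (x axis), for cells with Xist and no Y-linked UMI (squares), with Y-linked UMIs and no Xist (triangles) and with neither (circles), with 95% counting intervals. In Tcrg-V6 cells the squares lay above the triangles, at 2.80% against 2.01%, and in Tcrg-V4 cells below them, at 2.18% against 2.49%.

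Cells with a Tmem176b UMI held more member transcripts than cells without one in each library. At equal depth of 2000 UMIs, Tmem176b was detected in 45.04% of WT and 19.4% of KO T cells. B-marked cells should lack it. It was detected in 13.0% of 23 such cells in WT (2.78 to 33.6%) and 9.09% of 22 in KO (1.12 to 29.2%). With so few B-marked cells, the KO split is not shown to lie above background. Members took 2.60% of UMIs in WT cells with Tmem176b and 1.92% in those without it (log2 0.43), and 2.23% and 1.67% in KO cells (log2 0.42). Cells with Tmem176b also had more UMIs, with medians of 3538 against 3200 in WT and 4197 against 3379 in KO. In WT, 14 of 39 members were at least 1.5-fold higher with Tmem176b, where 11.1% of all genes were, and 1 was lower, where 16.4% were. In KO, 16 of 39 were higher, where 10.5% of all genes were, and 0 were lower, where 11.2% were.

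Atf3 differed most. It was at 577 CPM with Tmem176b and 164 CPM without it in WT (log2 1.82), and at 427 and 36.8 CPM in KO (log2 3.54). Fos was at 1372 and 682 CPM in WT and at 752 and 277 CPM in KO. Rgs1 was at 862 and 311 CPM in WT and at 324 and 86.2 CPM in KO. For Atf3 and Fos, KO cells with Tmem176b lay above WT cells without it. Klf4, a factor with antiproliferative roles, was at 50.7 and 10.2 CPM in KO (log2 2.31) and had a log2 ratio of 1.14 in WT. Zfp36l1 (log2 1.06 in WT and 0.95 in KO), Gadd45b (0.88 and 1.05), Nfkbiz (0.82 and 0.68) and the NR4A receptors Nr4a1 (0.71 and 1.26) and Nr4a3 (0.76 and 1.44) were higher in both libraries.

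Of the heat-shock members, Hspa1a and Hspa1b alone were at least 1.5-fold higher with Tmem176b, in both libraries. Among WT cells with Y-linked UMIs, Hspa1a was not called higher, and among WT cells with Xist, Dnaja1 was called higher too. Hspa1a was at 430.4 CPM with Tmem176b and 229 CPM without it in WT, and at 595 and 211 CPM in KO, and Hspa1b had log2 ratios of 1.06 and 1.71. Hspa8 had log2 ratios of 0.35 and 0.41, and Dnajb1 -0.06 and 0.11. Other members did not follow Tmem176b. Egr1 had log2 ratios of -0.11 in WT and 0.37 in KO, and Cd69 0.04 and -0.34. Dusp2 was opposite in WT, at 42.3 CPM with Tmem176b and 107 CPM without it (log2 -1.34), with a log2 ratio of -0.56 in KO.

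The same direction was seen within Tcrg-V groups. KO Tcrg-V1 cells took 2.21% with Tmem176b (603 cells) and 1.56% without it (1496 cells). WT Tcrg-V4 cells took 2.71% (166 cells) and 2.07% (224 cells), and WT Tcrg-V6 cells 2.41% (454 cells) and 2.08% (52 cells). In KO Tcrg-V1 cells Atf3 was at 455 CPM with Tmem176b and 40.1 CPM without it, and Hspa1a at 563 and 189 CPM. In WT Tcrg-V6 cells the gap was narrower for Hspa1a, at 320.3 and 271 CPM, than for Fos, at 1015 and 469 CPM. The groups differed in make-up, since 89.7% of WT Tcrg-V6, 42.6% of WT Tcrg-V4 and 28.7% of KO Tcrg-V1 cells had Tmem176b.

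**Figure D5:**
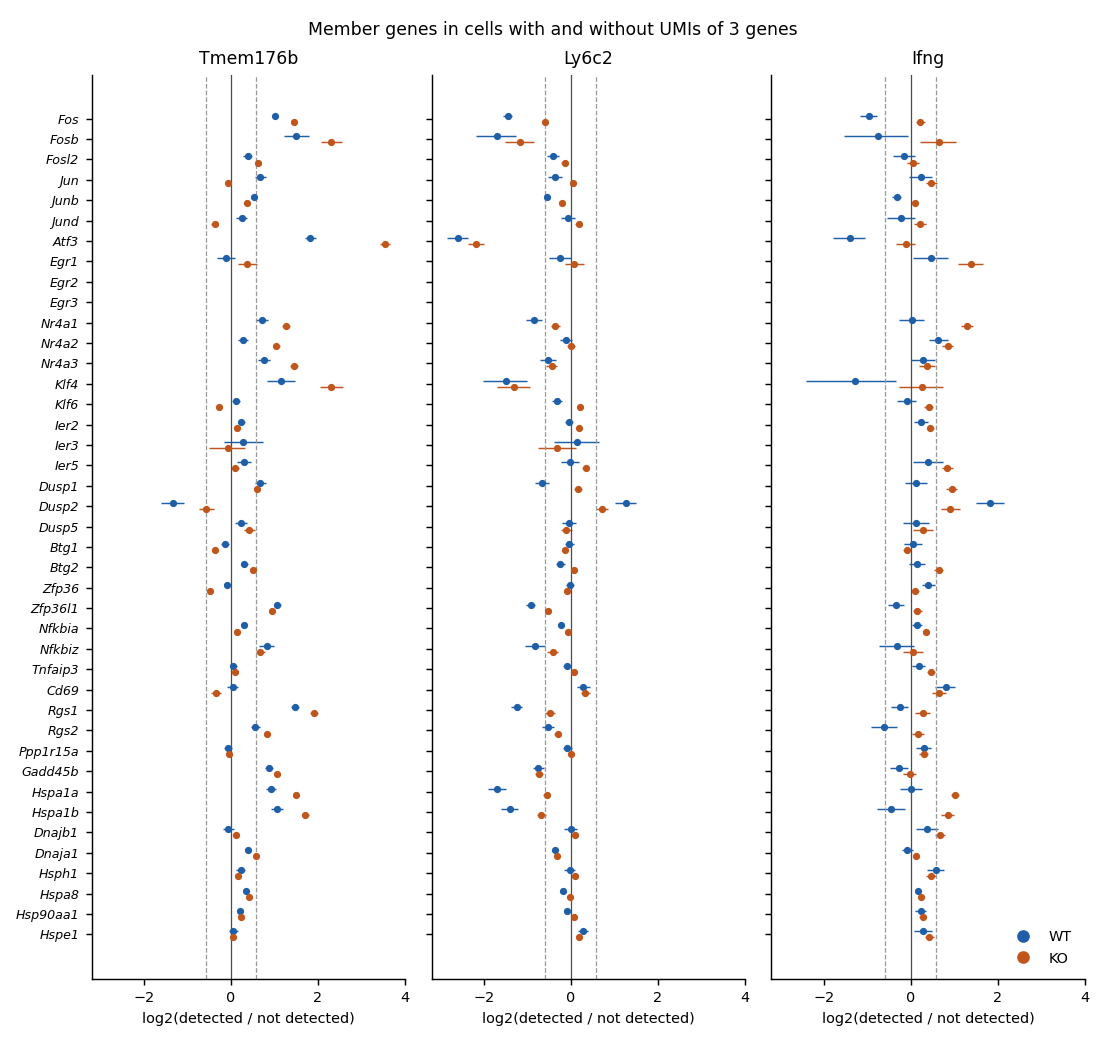
Log2 ratio (x axis) of each member (y axis; Egr2 and Egr3 had too few UMIs) between T cells with and without a UMI of Tmem176b, Ly6c2 or Ifng (panels), with blue points for WT, orange points for KO, bars for 95% counting intervals and dashed lines at 1.5-fold. Atf3 lay farthest right for Tmem176b (log2 1.82 and 3.54) and farthest left for Ly6c2 (-2.59 and -2.17), and Dusp2 lay on the opposite side to it in both panels.

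Ly6c2 encodes a surface antigen of memory-type and interferon-γ-producing T cells. At equal depth it was detected in 16.7% of WT and 21.8% of KO T cells. Among B-marked cells it was detected in 3 of 23 in WT (13.0%, 2.78 to 33.6%) and 4 of 22 in KO (18.2%, 5.19 to 40.3%). With so few B-marked cells, the split is not shown to lie above background. Members took 1.85% of UMIs in WT cells with Ly6c2 and 2.40% in those without it (log2 -0.37), but 1.73% and 1.86% in KO cells (log2 -0.10). In WT, 12 of 39 members were at least 1.5-fold lower with Ly6c2, where 13.5% of all genes were, and 1 was higher, where 5.0% were. In KO, 6 of 39 were lower, where 7.37% of all genes were, and 1 was higher, where 2.42% were. Dusp2 was the higher member in both, at 133 CPM with Ly6c2 and 55.4 CPM without it in WT and at 104 and 63.0 CPM in KO.

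Fos, Fosb, Atf3, Klf4, Gadd45b and Hspa1b were lower with Ly6c2 in both libraries. In KO, Fos was not called with thinning or with scaling to UMIs without mitochondrial and ribosomal genes. Atf3 was at 78.1 CPM with Ly6c2 and 471 CPM without it in WT (log2 -2.59), and at 39.5 and 178 CPM in KO (log2 -2.17). Fos was at 448 and 1222 CPM in WT and at 294 and 444 CPM in KO. Hspa1a was at 123 and 398 CPM in WT (log2 -1.69). The Ly6c2 split overlapped with that by Tmem176b, since 9.22% of WT cells with Ly6c2 had Tmem176b, against 60.2% of those without it, and 10.2% against 27.6% in KO. Among cells without Tmem176b, the members took 1.76% with Ly6c2 and 2.03% without it in WT, and 1.70% and 1.66% in KO. The direction in KO was thus not the same once cells with Tmem176b were set aside.

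Ifng, the interferon-γ gene, was detected in few cells, 99 in WT and 360 in KO. At equal depth it was detected in 2.50% of WT T cells, no more than the 4.35% of B-marked WT cells (1 of 23), and in 3.70% of KO T cells against 0 of 22 B-marked KO cells, which allows a share of up to 13.6%. With so few B-marked cells, neither split is shown to lie above background. Members took 2.32% of UMIs with Ifng and 2.27% without it in WT (log2 0.03), but 2.25% and 1.80% in KO (log2 0.32). In KO, 12 of 38 members were at least 1.5-fold higher with Ifng, where 2.87% of all genes were, and 0 were lower, where 5.03% were. In WT, 3 of 38 were higher, where 3.62% of all genes were, and 5 were lower, where 13.1% were.

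The KO members higher with Ifng included Egr1, Ier5, Dusp2, Btg2, Cd69 and Dnajb1. The KO calls depended on the setting: Egr1 and Fosb were not called with thinning, and Hspa1a, Hspa1b and Dnajb1 were not called in cells with Xist. Nr4a1 was at 370.3 CPM with Ifng and 151 CPM without it (log2 1.29), and Egr1 at 78.1 and 29.9 CPM (log2 1.39). Hspa1a was at 600.2 and 296 CPM (log2 1.02), and Dnajb1, level for Tmem176b, had a log2 ratio of 0.67. Dusp1 (0.94), Dusp2 (0.91), Ier5 (0.84), Btg2 (0.64) and Cd69 (0.65) were also higher. Fos itself had a log2 ratio of 0.22 in KO and was at 549 CPM with Ifng and 1072 CPM without it in WT. Dusp2 (229 and 64.6 CPM) and Cd69 (409 and 235 CPM) were higher with Ifng in WT as well. In KO, 18.6% of cells with Ifng had Tmem176b, against 23.5% of those without it, and cells with Ifng but not Tmem176b took 2.16%.

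Member UMIs were spread over all cells with a long upper tail. At 2000 UMIs per cell, the median cell gave 1.95% of its UMIs to members in WT and 1.6% in KO, and the 90th percentile lay at 4.42% and 3.15%. The top 10% of cells held 26.2% of member UMIs in WT and 25.2% in KO. The tail was heavier for heat-shock genes, whose top 10% of cells held 33.7% and 32.9%. Across cells of a library, which share depth and composition, the immediate-early and heat-shock sums correlated with a Pearson r of 0.58 over 2036 WT cells and 0.44 over 5728 KO cells. Single pairs of immediate-early genes had a median r of 0.092 in WT and 0.070 in KO in these sparse counts, with Fos and Junb highest at 0.44 and 0.32. Heat-shock pairs had medians of 0.33 and 0.29, led by Hspa1a with Hspa1b at 0.72 and 0.78, which share sequence. Among 2720 genes, those outside the list most like its sum were Hsp90ab1 (r 0.51 in WT and 0.42 in KO), Cdkn1a (0.47 and 0.39), Tob2 (0.39 and 0.38), Csrnp1 (0.37 and 0.33) and Ifrd1 (0.35 and 0.32).

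Other genes of the same pathways, from lists of 30 immediate-early and 27 chaperone genes outside the 41, gave a mixed comparison. Between the libraries, 13 of 29 counted further immediate-early genes were at least 1.5-fold lower in KO and 2 were higher, with a median log2 ratio of -0.49, where 9.11% and 7.65% of all genes were lower and higher. The higher ones were Klf2, a quiescence and egress factor, at 147 CPM in WT and 712 CPM in KO, and Zfp36l2 (log2 0.95). Of 26 further chaperone genes, 3 (Hspa5, Dnajb4 and Bag3) were lower and 1 (Hspb1) was higher. With Tmem176b, 12 of 28 further immediate-early genes were higher in each library, where 11.1% of all genes were in WT and 10.5% in KO, and 3 in WT and 2 in KO were lower, where 16.4% and 11.2% were. Of the chaperone genes, 2 of 26 in WT and 3 of 26 in KO were higher. With Ly6c2, 11 of 25 further immediate-early genes were lower in WT and 4 of 28 in KO, where 13.5% and 7.37% of all genes were.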

How the data were processed

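The deposited files hold whole-number UMI counts per gene and cell, which the authors made with Cell Ranger (7.0 per the processing notes, 7.0.0 per the file headers) on mm10. The labels name a 3′ kit and the methods a V(D)J kit, and the sources used here give no number of animals per library. The study's cell filter (over 200 and under 4000 genes, under 10% mitochondrial UMIs) left 2505 of 2520 WT and 6634 of 6688 KO barcodes, each above the cell number the study gives. Cells were kept as T cells with a UMI of 7 T cell transcripts and under 2 myeloid and 2 B cell marker genes (250 WT and 265 KO cells left out). No doublet caller was run. Counts were summed per group of cells and scaled to all UMIs, with exact 95% intervals for counting error only (Python 3.11.15, numpy 2.4.6, scipy 1.17.1, pandas 2.3.3, matplotlib 3.10.9). A gene was called at 1.5-fold where both sums expected at least 20 UMIs. With 1 library per group no test was made. On counts simulated for KO over WT with counting error alone, 95.3% of 10406 intervals held the simulated ratio. This checks the interval calculation only and not the spread between cells or mice. Named members are those called, the most abundant, and members of a role described. The members and lists were chosen with earlier results of these data known, and the shorter motif spellings after a search with the longer ones. Levels are not divided by length, so they are not compared between genes.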

Additional observations from a re-analysis of the deposited data

Results flagged for a closer look

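Cells outside the comparisons also held member transcripts. The 250 WT cells left out as not T cells gave 1.69% of their UMIs to the 41 members, and the 265 KO cells left out gave 1.76%. In these cells Ier3 was at 199.9 CPM in WT and 123 CPM in KO, against 20.9 and 10.4 CPM in T cells, and Hspa1a was at 466 and 923 CPM, against 335 and 314 CPM. Their median depths were 1426 and 1231 UMIs, below those of the T cells.

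Fosb differed in opposite directions by Ifng detection in the libraries. Its log2 ratio between cells with and without Ifng was -0.75 in WT and 0.64 in KO. With thinning, Fosb was called at 1.5-fold in neither library, and in cells with Xist it was called in KO only. Neither Ifng split is shown to lie above background. The difference between the WT and KO ratios was not tested.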

How the results depend on the processing

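No paired analysis was possible because neither genotype had more than 1 library. All values here are log2 ratios of the summed member share, in the order KO over WT, WT Tcrg-V4 over Tcrg-V6, KO Tcrg-V1 over WT Tcrg-V6, KO Tcrg-V1 over WT Tcrg-V4, then detected over not for Tmem176b, Ly6c2 and Ifng. As reported they were -0.32, -0.04, -0.44 and -0.40, then 0.43 in WT and 0.42 in KO for Tmem176b, -0.37 and -0.10 for Ly6c2, and 0.03 and 0.32 for Ifng. The comparison of WT Tcrg-V4 with Tcrg-V6 cells changed sign with thinning (0.043), with scaling to UMIs without mitochondrial and ribosomal genes (0.042) and with a mean over cells (0.014). It was also opposite in WT cells with Y-linked UMIs and no Xist, with shares of 2.49% for Tcrg-V4 and 2.01% for Tcrg-V6. In WT cells with neither, the shares were 2.41% and 2.28%. Among cells with Tmem176b alone KO over WT was -0.22, and among cells without it -0.20. The other 9 kept their sign in every alternative run for them, and the cause of each shift was not tested. The split by Tmem176b was run as an alternative for KO over WT alone. Among KO cells without Tmem176b, members took 1.70% with Ly6c2 and 1.66% without it, opposite in direction to the KO Ly6c2 value above.

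Without a cell filter, Ifng in KO gave 0.35. With all cells passing the filter, KO over WT was -0.29, Tcrg-V4 over Tcrg-V6 -0.066, KO Tcrg-V1 over WT Tcrg-V4 -0.36, Tmem176b in WT 0.46 and Ly6c2 in KO -0.087. Thinned to 2000 UMIs, KO over WT was -0.33, KO Tcrg-V1 over WT Tcrg-V4 -0.48, Tmem176b 0.34 and 0.46, Ly6c2 -0.40 and -0.075, and Ifng 0.19 and 0.51. With detection at 2 UMIs, Tcrg-V4 over Tcrg-V6 was -0.13, KO Tcrg-V1 over these -0.34 and -0.47, Tmem176b 0.41 and 0.44, Ly6c2 -0.39 and -0.083, and Ifng 0.48 and 0.68. Scaled without mitochondrial and ribosomal genes, KO over WT was -0.29, KO Tcrg-V1 over WT Tcrg-V6 -0.36, Tmem176b 0.37 in both, Ly6c2 -0.25 and -0.043, and Ifng in WT 0.094. Without Hspa8, Junb and Dnaja1, KO over WT was -0.37, KO Tcrg-V1 over WT Tcrg-V6 and Tcrg-V4 -0.49 and -0.47, Ly6c2 -0.41 and -0.084, and Ifng in KO 0.41. As a mean over cells, KO Tcrg-V1 over WT Tcrg-V4 was -0.44, Tmem176b in KO 0.43 and Ifng in KO 0.40. Without the deepest 5% of cells, KO over WT was -0.33, Tmem176b in KO 0.43, Ly6c2 -0.41 and -0.11, and Ifng in KO 0.38. In cells with Xist but without Y-linked UMIs, a split chosen after seeing the data, KO over WT was -0.40, Tcrg-V4 over Tcrg-V6 -0.36, KO Tcrg-V1 over these -0.36 and -0.72, Tmem176b 0.61 and 0.43, Ly6c2 in WT -0.42, and Ifng 0.17 and 0.25.

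Taken alone, the immediate-early sum changed sign for Tcrg-V4 over Tcrg-V6 with thinning (0.037) and the other scaling (0.0081). For Ifng in WT it did so with thinning (0.13), 2 UMIs (0.45), the other scaling (0.024), without the top 3 members (0.014) and in cells with Xist (0.042). The heat-shock sum changed sign for Tcrg-V4 over Tcrg-V6 with all cells passing the filter (-0.015), 2 UMIs (-0.038) and in cells with Xist (-0.19). For single members between the libraries, 266 values stayed within counting error and 62 moved. Klf6, Dusp2, Dnajb1, Ier2 and Egr3, none of them called, changed sign in at least 1 alternative.

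By count, thinning gave 2 of 39 members higher and 14 lower in KO, where 8.35% and 8.97% of all genes were. The heat-shock gene Hspa1b was among the 14. With Ifng in WT, thinning gave 4 of 32 higher and 2 lower, where 4.41% and 15.1% were. The other scaling left 1 of 39 members lower in Tcrg-V4 than in Tcrg-V6 cells, where 9.65% of all genes were, and 3 higher, where 12% were. For Ly6c2 in WT it shifted the median of all genes by 0.13 and the share of calls that were higher from 27.0% to 42.8%, with 1 member higher and 11 lower.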
